A study of Mus musculus with 6 samples.

Results

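The 10 integrin subunit genes examined here are 5 alpha subunits (Itga2, Itga3, Itga5, Itga6 and Itgav) and 5 beta subunits (Itgb1, Itgb3, Itgb4, Itgb5 and Itgb6). They were chosen by gene symbol, and all 10 were found among the 10995 rows of the deposited count table. Integrins are receptors for extracellular matrix that span the cell membrane as a pair of 1 alpha and 1 beta chain. Their outer parts bind laminins, collagens or proteins such as fibronectin that carry an RGD peptide, and their inner tails bind talin and kindlin, which link them to actin and to kinases such as FAK. In the mammary gland, laminin receptors hold epithelial cells to the basement membrane, and several subunits serve as surface markers of basal and progenitor cells.

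The RNA came from mammary tumor cells of PyVT mice, which express the polyoma middle T oncogene in the mammary epithelium from the MMTV promoter. All mice were FVB/NJ. A first group of 3 libraries was labelled wild type for Nr4a1 (WT below) and a second group of 3 was labelled Nr4a1-/- (KO below). Both groups carry the PyVT transgene and were matched for age. The labels give no age and no disrupted exon. Nor do they state if a group's libraries are from different animals, and the p-values here then reflect only library-to-library spread, possibly technical.

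The libraries held 19569173 to 24188875 counts. Levels are given as CPM, the count per 1000000 counts of the TMM-scaled library size, and fold changes as log2 of KO over WT with the standard error (SE) of the edgeR fit. The transcript of the targeted gene was not lower with the KO label, which goes against the labels if the allele leaves no RNA. Nr4a1 stood at 34.5, 18.6 and 16.8 CPM in WT replicates 1, 2 and 3 and at 25.1, 35.5 and 37.6 CPM in KO replicates 1, 2 and 3. Counts over the whole gene do not show whether reads cover the disrupted part, so each direction here is between libraries as labelled. WT replicate 1 stood apart, at -51.3 on the first principal component against -2.2 to 28.8 for the other libraries. No 2 libraries agreed within counting noise (smallest chi-square per degree of freedom 23.3).

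Windows from 250 bases before to 50 bases after the annotated start, from RefSeq on GRCm38.p6, were found for 7 of the 10 subunits (not for Itga6, Itgb3 and Itgb4), in 9 windows. The windows of the 3 subunits with the highest level per length and of the subunit with the lowest are shown to compare their base composition. Only the stretch outside annotated exons is printed, 5′ to 3′ along the gene's strand, with capitals at each match to the SP/KLF box GGGCGG on either strand.
Itgb1, chr8:128685404-128685653, plus strand: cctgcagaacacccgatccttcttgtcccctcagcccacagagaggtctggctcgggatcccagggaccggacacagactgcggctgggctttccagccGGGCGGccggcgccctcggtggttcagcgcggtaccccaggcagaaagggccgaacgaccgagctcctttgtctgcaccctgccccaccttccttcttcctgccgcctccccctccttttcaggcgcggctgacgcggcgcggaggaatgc
Itga3, chr11:95076802-95076964, minus strand: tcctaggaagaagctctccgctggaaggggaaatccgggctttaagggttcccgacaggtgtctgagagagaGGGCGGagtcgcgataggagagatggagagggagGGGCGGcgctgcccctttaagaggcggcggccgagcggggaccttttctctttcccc
Itgb5, chr16:33829415-33829664, plus strand: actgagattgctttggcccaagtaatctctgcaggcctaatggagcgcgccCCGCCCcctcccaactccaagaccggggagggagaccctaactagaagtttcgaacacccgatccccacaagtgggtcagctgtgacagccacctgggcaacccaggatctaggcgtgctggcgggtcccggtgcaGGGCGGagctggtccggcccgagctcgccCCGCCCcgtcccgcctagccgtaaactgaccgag
Itgb6, chr2:60722644-60722853, minus strand: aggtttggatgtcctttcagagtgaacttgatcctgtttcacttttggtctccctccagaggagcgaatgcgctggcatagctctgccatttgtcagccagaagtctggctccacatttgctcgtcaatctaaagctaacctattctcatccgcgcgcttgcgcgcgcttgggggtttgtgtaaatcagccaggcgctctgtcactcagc
The full windows of these stretches were 67.3% (Itgb1), 66.7% (Itga3), 65.7% (Itgb5) and 50.3% (Itgb6) G or C, against a median of 52.7% over 32851 windows. Itga3 and Itgb6 each have another window, at a start further into the gene, with 52.3% and 38.3%. The windows of Itga5, Itgav and Itga2, ranked 4, 8 and 9 by level per length, had 58.7%, 67.3% and 59.3%. The share of G or C thus did not follow the order of the levels. The SP/KLF box lay in 7 of the 9 windows of these genes, against 35.7% of all windows. The box is itself all G and C, and the windows compared were not matched for their share of G or C. Both windows of Itgb6 lacked the box. The NBRE, AAAGGTCA, the element that NR4A receptors bind as monomers, lay in 0 of the 9 windows on either strand and in 1.51% of all windows. The AP-1 motif TGANTCA and the ETS motif CCGGAAG each lay in 1 of the 9, in windows of Itga3, against 7.81% and 8.86% of all windows. A TATAAA box lay in 0 of the 9 and in 13.6% of all windows. Such a match describes the letters and is not evidence of a bound site.

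Levels per length, in CPM per kilobase of annotated exon, show which subunit transcripts these tumor cells held. Itgb1, the common partner of most alpha chains, stood highest at 467 ± 93.8 (SD, n = 6 libraries). Itga3, a laminin receptor chain, followed at 144 ± 24.8 (SD, n = 6), and Itgb5, a partner of Itgav, at 105 ± 11.5 (SD, n = 6). The fibronectin receptor chain Itga5 (55.7 ± 28.8, SD, n = 6) and the hemidesmosome chain Itgb4 (53.6 ± 14.7, SD, n = 6) had overlapping ranges. Itgb4 was the higher of this pair in all 3 WT libraries and Itga5 in all 3 KO libraries, by as little as 59.3 against 58.5 in WT replicate 2. Itgb3 stood at 38.0 ± 10.9 (SD, n = 6), Itga6 at 34.8 ± 8.67 (SD, n = 6), Itgav at 27.4 ± 4.08 (SD, n = 6) and Itga2 at 16.6 ± 7.11 (SD, n = 6). Itgb6, an epithelial partner of Itgav that activates latent TGF-beta, was lowest at 3.96 ± 1.06 (SD, n = 6).

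Between neighbours in this order, only Itgb1 over Itga3 and Itga2 over Itgb6 had ranges over the 6 libraries that did not overlap. Itgb5 was above Itga5 in 6 of 6 libraries although the ranges overlapped. The middle of the order depends on the length used. The annotated exons of Itga6 cover 9025 bases and its longest transcript 4310 bases, so that its level is 72.8 CPM per kilobase by the longest transcript, which moves it from the seventh place to the fourth. Likewise Itgav covers 10744 bases with a longest transcript of 7054 bases, and its level becomes 41.7. Itgb1, Itga3 and Itgb5 stayed the highest and Itga2 and Itgb6 the lowest with either length.

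**Figure D1:**
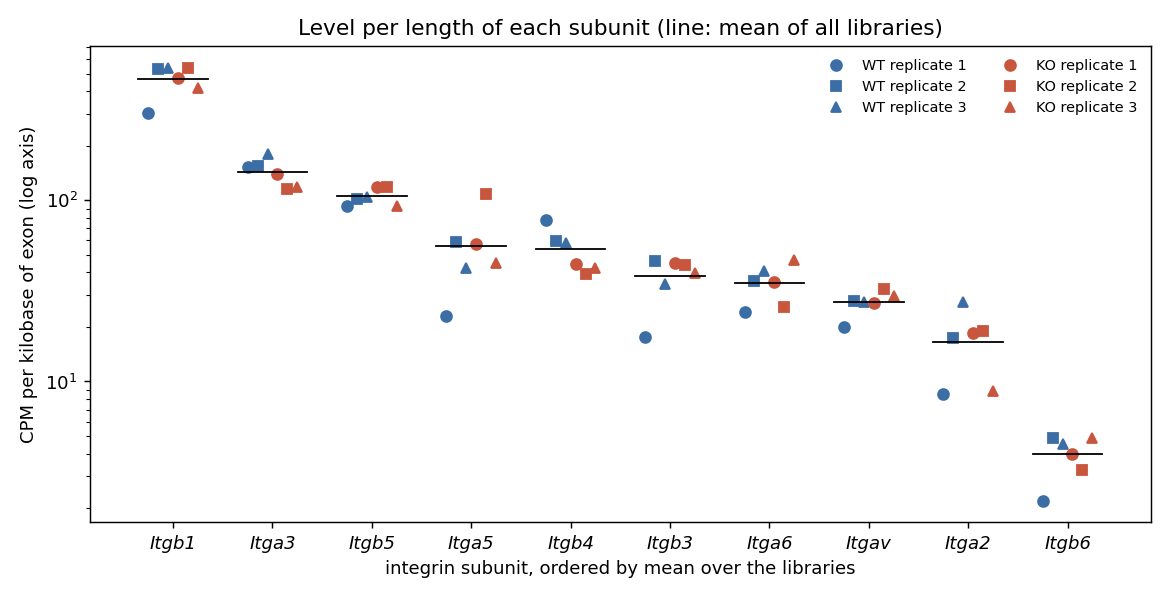
Level of each of the 10 subunits in CPM per kilobase of annotated exon (log axis), ordered by the mean of the 6 libraries (line); blue is WT, red is KO, and the symbol gives the replicate. Itgb1 lies above the others in every library, between 302 and 540, and Itgb6 below them, between 2.20 and 4.88.

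The comparison asked which integrin transcripts differ between tumor cells labelled Nr4a1-/- and those labelled wild type. The edgeR quasi-likelihood test called 0 of the 10 subunits at an adjusted p under 0.05, and it called 0% of all 10995 genes. At an unadjusted p under 0.05 it gave 2 of the 10, Itgb4 and Itga3, both lower with the KO label, where 7.88% of all genes passed and 4.17% were lower. DESeq2 called 1 of the 10, Itgb4, against 0.938% of the 10984 genes to which it gave an adjusted p, and limma-voom called 0 of the 10 and 0% of all genes. The KO and WT libraries did not overlap for 2 of the 10, Itgb4 and Itga3, beside 17.4% of all genes and 9.05% in the lower direction. That share is near the background and is no result about the subunits as a group. Of the 10 log2 fold changes, 7 lay above 0 and 3 below, with a median of 0.09 against -0.002 over all genes. Without WT replicate 1, 4 lay above 0 and 6 below, with a median of -0.12.

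Itgb4 encodes the beta chain that pairs with Itga6 in hemidesmosomes, where its long inner tail binds plectin. The gene (ENSMUSG00000020758.15) lies on chromosome 11 from 115974709 to 116008412 on the plus strand of GRCm38. Its level was 549.6, 416 and 407 CPM in WT replicates 1, 2 and 3 and 312, 275 and 295 CPM in KO replicates 1, 2 and 3. Every KO library lay below every WT library, and the KO libraries differed little among themselves. The means were 458 ± 79.7 CPM (SD, n = 3) in WT against 294 ± 18.6 CPM (SD, n = 3) in KO, a log2 fold change of -0.64 (SE 0.14, edgeR unadjusted p = 0.00343, adjusted p = 0.574). DESeq2 gave the same log2 fold change of -0.64 with an adjusted p of 0.00868. That call was lost without KO replicate 1 (DESeq2 adjusted p = 0.0674), KO replicate 2 (0.262) or KO replicate 3 (0.0588), and it held without WT replicate 1, with a log2 fold change of -0.48. An antisense lincRNA, B230344G16Rik, overlaps 537 exonic bases of Itgb4, and 6.52% of the 31-base words of the longest Itgb4 transcript occur in other genes. Whether reads were counted by strand was not given in the sources used here.

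Itga3 encodes an alpha chain that pairs with Itgb1 to bind laminins of the epithelial basement membrane. The gene (ENSMUSG00000001507.16) lies on chromosome 11 from 95044474 to 95076801 on the minus strand. It stood at 875, 886 and 1034 CPM in WT replicates 1, 2 and 3 and at 797, 664 and 673 CPM in KO replicates 1, 2 and 3. The highest KO library lay below the lowest WT library, and WT replicate 1 lay close to WT replicate 2. The means were 932 ± 88.5 CPM (SD, n = 3) in WT against 711 ± 74.7 CPM (SD, n = 3) in KO, with a log2 fold change of -0.39 (SE 0.12, edgeR unadjusted p = 0.0183, adjusted p = 0.574). DESeq2 did not call it (adjusted p = 0.138).

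Markers of luminal epithelium stood lower with the KO label beside Itgb4 and Itga3. Of the 12 luminal markers 11 were listed, all 11 with a log2 fold change below 0 (median -0.50). Of these, 0 were called by edgeR and 1 by DESeq2 (Krt7, adjusted p = 0.00532, beside 0.938% of all genes). At an unadjusted edgeR p under 0.05, 6 were lower (4.17% of all genes). For 5 of the 11, every KO library lay below every WT library (9.05% of all genes). The summed level of the 11 markers was 6527 to 7754 CPM in WT and 4101 to 5132 CPM in KO libraries. Per 1000 CPM of these markers, Itgb4 stood at 70.9, 62.8 and 62.4 CPM in WT replicates 1, 2 and 3 and at 60.8, 67.0 and 63.6 CPM in KO replicates 1, 2 and 3. On that scale the groups overlapped, with means of 65.3 ± 4.80 (SD, n = 3) and 63.8 ± 3.12 (SD, n = 3). With Krt8 left out of the markers Itgb4 lay between 82.7 and 85.1 CPM in WT and between 80.6 and 86.8 CPM in KO libraries, and with Cldn4 left out between 72.0 and 97.4 CPM and between 69.4 and 80.1 CPM. Itga3 per 1000 CPM of all the luminal markers was 113, 134 and 158 CPM in WT and 155, 162 and 145 CPM in KO replicates 1, 2 and 3, which also overlapped. Scaling to these markers was chosen after the values were seen. In bulk RNA, fewer cells of a type and less RNA per cell cannot be told apart.

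Itga6, the laminin receptor chain shared by Itgb4 and Itgb1, showed no such separation in CPM. The gene (ENSMUSG00000027111.15) lies on chromosome 2 from 71745616 to 71858416 on the plus strand, and 6.92% of the words of its longest transcript occur in other genes. It stood at 218, 323 and 366 CPM in WT replicates 1, 2 and 3 and at 319, 233 and 424 CPM in KO replicates 1, 2 and 3, with both groups spanning much the same range. Its log2 fold change of 0.11 had an SE of 0.28 (edgeR adjusted p = 0.890). Per length, the ratio of Itgb4 to Itga6 was 3.24, 1.66 and 1.43 in WT and 1.26, 1.52 and 0.896 in KO replicates 1, 2 and 3. KO replicate 2 lay above WT replicate 3, so the groups overlapped, and WT replicate 1 stood far above the other libraries. Per 1000 CPM of luminal markers, Itga6 was 28.2, 48.7 and 56.1 CPM in WT and 62.1, 56.8 and 91.3 CPM in KO replicates 1, 2 and 3. On that scale every KO library lay above every WT library, by as little as 56.8 against 56.1. The means were 44.3 ± 14.5 (SD, n = 3) in WT and 70.1 ± 18.6 (SD, n = 3) in KO.

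Itgb1 (ENSMUSG00000025809.15, chromosome 8 from 128685654 to 128733200, plus strand) is needed by Itga2, Itga3 and Itga5 as their beta chain. It had 1233, 2176 and 2180.4 CPM in WT replicates 1, 2 and 3 and 1943, 2204 and 1704 CPM in KO replicates 1, 2 and 3. WT replicate 1 was the lowest of the 6 libraries and the other libraries lay close together. Its log2 fold change of 0.07 had an SE of 0.25 (edgeR adjusted p = 0.926), and it was -0.16 without WT replicate 1. The level of Itgb1 per length over the summed alpha chains was 1.32 in WT replicate 1 and between 1.68 and 1.81 in the other 5 libraries.

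Itga2 (ENSMUSG00000015533.9, chromosome 13 from 114833081 to 114932100, minus strand) makes a collagen receptor with Itgb1. It stood at 61.0, 124 and 196 CPM in WT replicates 1, 2 and 3 and at 133, 135 and 63.6 CPM in KO replicates 1, 2 and 3. WT replicate 1 and KO replicate 3 were low and WT replicate 3 was high, a range of 3.22 times within which the groups overlapped. Its log2 fold change of -0.20 had an SE of 0.48 (edgeR adjusted p = 0.875), and it became 0.26 without WT replicate 3 and 0.08 without KO replicate 3.

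**Figure D2:**
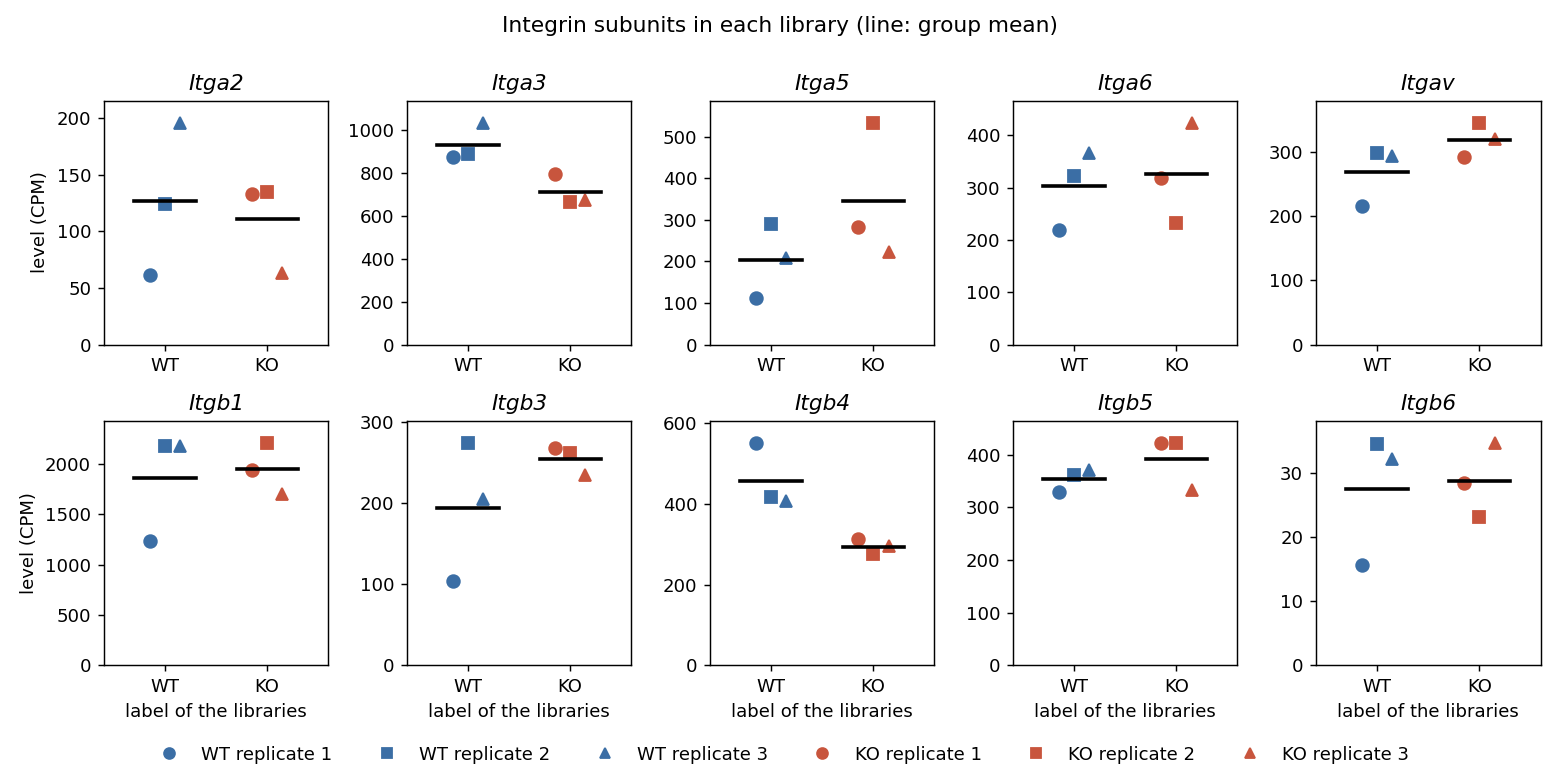
Level (CPM, axes from 0) of each subunit in the 3 WT (blue) and 3 KO (red) libraries, with the group mean as a line. The groups separate for Itgb4 and Itga3 and overlap for the other 8 subunits, and WT replicate 1 (blue circle) is the lowest point for 8 of the 10.

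Itga5, whose product pairs with Itgb1 as the main fibronectin receptor, had the highest log2 fold change of the 10 and the widest range between libraries. The gene (ENSMUSG00000000555.8) lies on chromosome 15 from 103344286 to 103366763 on the minus strand. Its level was 113, 289 and 208 CPM in WT replicates 1, 2 and 3 and 283, 534 and 222 CPM in KO replicates 1, 2 and 3. KO replicate 2 was far above the others and WT replicate 1 far below, 4.72 times apart, and the groups overlapped. The means were 203 ± 87.9 CPM (SD, n = 3) in WT against 346 ± 165 CPM (SD, n = 3) in KO, with a log2 fold change of 0.77 (SE 0.45, edgeR adjusted p = 0.583). It was 0.31 without KO replicate 2 and 0.48 without WT replicate 1.

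Several marker lists varied over the 6 libraries with Itga5. The Pearson r of its log2 CPM with the mean of a list was 0.94 for endothelial, 0.92 for pericyte and smooth muscle, 0.89 for platelet (Pf4 alone) and 0.88 for fibroblast markers (n = 6 libraries, which the lists share). The same r was 0.86 for macrophage, 0.80 for adipocyte (Fabp4 and Lpl alone) and 0.78 for basal and myoepithelial markers. It was 0.29 for lymphocyte and other leukocyte markers and -0.91 for luminal markers. Of 10 pericyte and smooth muscle markers 9 were listed, with a summed level of 567 to 1344 CPM in WT and 1097 to 2276 CPM in KO libraries. Per 1000 CPM of these markers, Itga5 was 199, 215 and 196 CPM in WT and 195, 235 and 202 CPM in KO replicates 1, 2 and 3, between 195 and 235 in all. That evenness rests on Acta2, a contractile gene that myoepithelial cells share. Without Acta2 the values were 273, 517 and 462 CPM in WT and 433, 609 and 399.6 CPM in KO replicates 1, 2 and 3. Of 12 fibroblast markers 9 were listed, summing to 2456 to 5917 CPM in WT and 5229 to 9556 CPM in KO libraries. All 9 had a log2 fold change above 0 (median 0.79), but edgeR and DESeq2 called 0 of them (0% and 0.938% of all genes). The groups overlapped for each of the 9, where 8.39% of all genes did not overlap with KO higher. Per 1000 CPM of fibroblast markers Itga5 lay between 34.5 and 62.0 CPM. These scalings, too, were chosen after the values were seen.

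**Figure D3:**
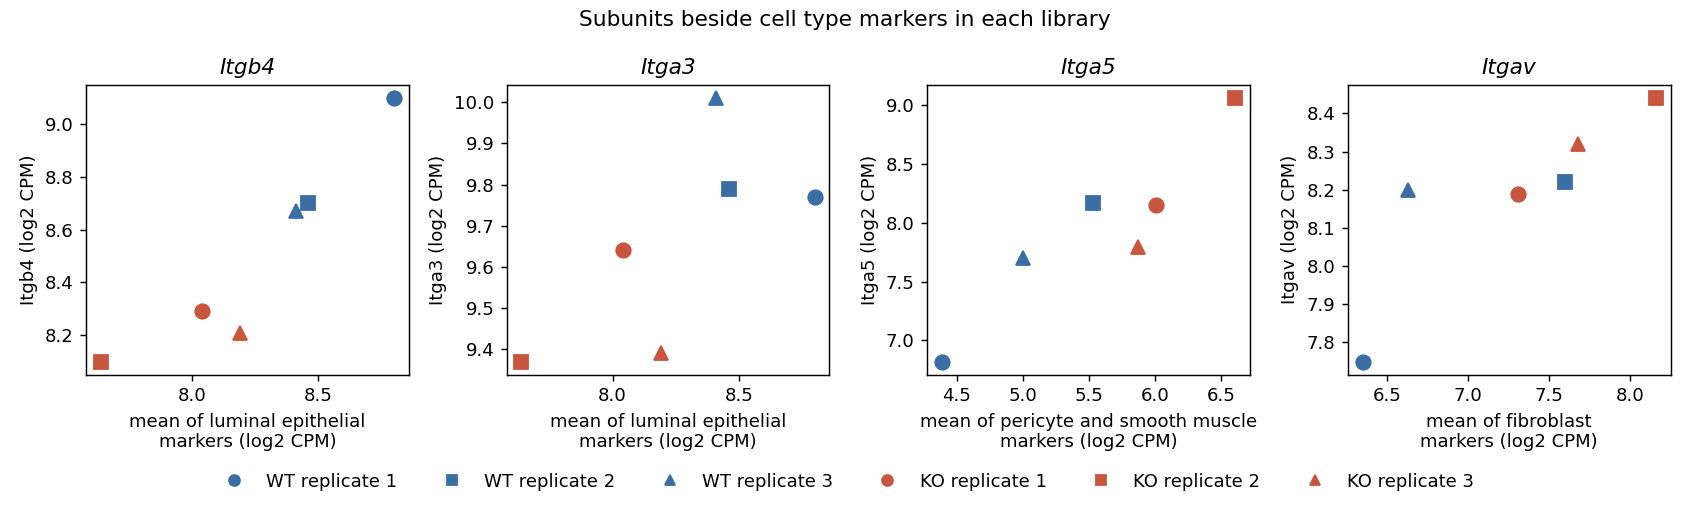
Level of 4 subunits (log2 CPM) against the mean level of a marker list (log2 CPM) in the 6 libraries; blue is WT, red is KO and the symbol gives the replicate. Itgb4 follows the luminal markers, from KO replicate 2 at the lower left to WT replicate 1 at the upper right. Itga5 runs from WT replicate 1 to KO replicate 2 along the pericyte and smooth muscle markers, as does Itgav along the fibroblast markers. The Pearson r of Itgb4 (n = 6) was 0.93 with luminal markers. With pericyte and smooth muscle, adipocyte (Fabp4 and Lpl alone) and endothelial markers, not drawn for Itgb4, it was as far from 0 in the other direction (-0.95, -0.94 and -0.93). For Itgav r was 0.86 with fibroblast markers and 0.95 with basal and myoepithelial markers, the latter not drawn.

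Itgav encodes the alpha chain of the RGD receptors and pairs with Itgb1, Itgb3, Itgb5 or Itgb6. The gene (ENSMUSG00000027087.11) lies on chromosome 2 from 83724397 to 83806916 on the plus strand. It stood at 216, 299 and 294 CPM in WT replicates 1, 2 and 3 and at 292, 346 and 320.1 CPM in KO replicates 1, 2 and 3. Apart from the low WT replicate 1 the libraries lay between 292 and 346 CPM. Its log2 fold change of 0.25 had an SE of 0.15 (edgeR adjusted p = 0.583), and it was 0.11 without WT replicate 1. Per 1000 CPM of fibroblast markers Itgav was uneven and the groups overlapped. It was 87.8, 50.5 and 87.4 CPM in WT and 55.9, 36.2 and 49.8 CPM in KO replicates 1, 2 and 3. Genes on the opposite strand overlap 634 of its exonic bases.

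Its beta partners differed from each other in how evenly they were held. Itgb5 (ENSMUSG00000022817.15, chromosome 16 from 33829665 to 33949338, plus strand), a vitronectin receptor chain, was the most even of the 10, at 329, 362 and 371 CPM in WT replicates 1, 2 and 3 and 421, 421 and 332 CPM in KO replicates 1, 2 and 3. KO replicate 3 lay within the WT range, and the log2 fold change was 0.15 with an SE of 0.12 (edgeR adjusted p = 0.642). Of the words of its longest transcript, 8.7% occur in other genes, mainly the model Gm38317.

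Itgb3 (ENSMUSG00000020689.4, chromosome 11 from 104608000 to 104670476, plus strand) encodes CD61, a marker of luminal progenitors in the mammary gland and of platelets. It had 104, 273 and 205 CPM in WT replicates 1, 2 and 3 and 267, 261 and 234 CPM in KO replicates 1, 2 and 3. The KO libraries were alike, while the WT libraries lay on both sides of them. Its log2 fold change of 0.39 had an SE of 0.33 (edgeR adjusted p = 0.654). It was 0.09 without WT replicate 1 and 0.72 without WT replicate 2. Of the 8 platelet markers only Pf4 was listed, at 11.0 to 28.7 CPM in WT and 16.8 to 30.6 CPM in KO libraries. Its part in the level of Itgb3 was not tested. Of 13 basal and myoepithelial markers 11 were listed, and their summed level was lowest in WT replicate 1, at 1159 CPM, against 2295 to 3057 CPM in the other libraries.

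Itgb6 (ENSMUSG00000026971.15, chromosome 2 from 60598292 to 60722643, minus strand) had 323 to 755 counts in a library. Its level was 15.7, 34.6 and 32.2 CPM in WT replicates 1, 2 and 3 and 28.5, 23.2 and 34.7 CPM in KO replicates 1, 2 and 3. WT replicate 1 was again the lowest, and the groups overlapped. Its log2 fold change of 0.06 had an SE of 0.32 (edgeR adjusted p = 0.945), and it was -0.22 without WT replicate 1. Per length, Itgb3, Itgb5 and Itgb6 together held 5.26 to 5.59 times the level of Itgav in WT and 4.63 to 6.17 times in KO libraries.

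Among the alpha chains, the shares of Itga3 and Itga5 differed most visibly between libraries. Itga3 made up 66.9%, 52.7% and 56.8% of the summed alpha level per length in WT replicates 1, 2 and 3 and 50.2%, 38.6% and 47.4% in KO replicates 1, 2 and 3. Itga5 had its lowest share in WT replicate 1, made up 19.9% and 13.2% in WT replicates 2 and 3, and made up 20.7%, 35.9% and 18.1% in KO replicates 1, 2 and 3. In KO replicate 2 the shares of these chains were thus nearly equal, and in WT replicate 1 they were farthest apart. Itgb1 made up 61.3% of the summed beta level in WT replicate 1 and 69.2% to 72.6% in the other libraries. Itgb4 made up 15.9%, 7.96% and 7.89% in WT and 6.46%, 5.26% and 7.05% in KO replicates 1, 2 and 3. Shares within a pool are not independent, since a lower share of 1 chain raises those of the others.

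**Figure D4:**
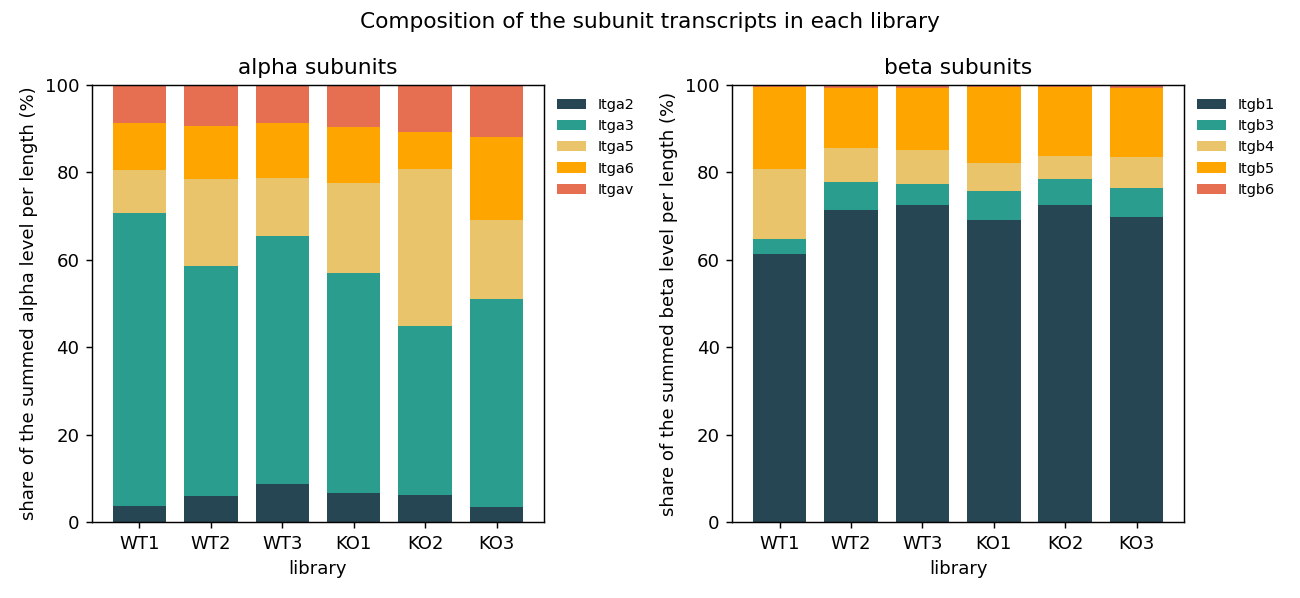
Share (%) of each chain in the summed level per length of the 5 alpha (left) and 5 beta (right) subunits, for each library. Itga3 is widest in WT replicate 1 and narrowest in KO replicate 2, where Itga5 is widest, and Itgb1 takes between 61.3% and 72.6% of the beta level; Itgb6, under 1%, is too thin to see.

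WT replicate 1 was the lowest library for 8 of the 10 subunits, beside 31.6% of all genes, and the highest for 1, Itgb4, beside 32.2% of all genes. Itga3 was the remaining subunit. KO replicate 2 was the highest library for 4 and the lowest for 2, Itga3 and Itgb4. Among all 10994 other genes, those whose log2 CPM over the 6 libraries was most like that of Itgb4 were Gprc5a (Pearson r = 0.995, n = 6), Trappc6a (r = 0.991) and Inafm2 (r = 0.989). Gprc5a, an orphan receptor of epithelia, stood at 61.6, 32.3 and 32.6 CPM in WT and 19.6, 16.7 and 18.2 CPM in KO replicates 1, 2 and 3, so that WT replicate 1 was also its highest library.

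Other integrin subunits, many of them known from stromal and immune cells, had mostly positive fold changes that edgeR did not call. Of 18 such genes 8 were listed, 7 with a log2 fold change above 0, and the median was 0.87. The edgeR test called 0 of the 8, 4 had an unadjusted p under 0.05 in the higher direction (3.70% of all genes), and 3 did not overlap between the groups with KO higher (8.39% of all genes). Itga1, a collagen receptor chain of smooth muscle and fibroblasts, stood at 8.97, 18.0 and 17.0 CPM in WT and 34.7, 54.0 and 35.4 CPM in KO replicates 1, 2 and 3. All KO libraries were above all WT libraries, with a log2 fold change of 1.50 (SE 0.32, edgeR adjusted p = 0.574, DESeq2 adjusted p = 0.00248). The DESeq2 call was lost without KO replicate 2 (adjusted p = 0.126). Per 1000 CPM of pericyte and smooth muscle markers it was 15.8, 13.4 and 16.0 CPM in WT and 23.8, 23.7 and 32.3 CPM in KO replicates 1, 2 and 3. With Acta2 left out of these markers it was 21.7 to 37.7 CPM in WT and 52.9 to 63.7 CPM in KO libraries.

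Itga11, a collagen receptor chain of fibroblasts, stood at 31.1, 39.8 and 23.0 CPM in WT and 69.2, 77.1 and 41.3 CPM in KO replicates 1, 2 and 3. The means were 31.3 ± 8.40 CPM (SD, n = 3) in WT against 62.6 ± 18.8 CPM (SD, n = 3) in KO, and edgeR did not call the difference (adjusted p = 0.574). Per 1000 CPM of fibroblast markers it lay between 6.72 and 12.6 CPM in WT and between 6.43 and 13.2 CPM in KO libraries. The myeloid chains Itgam and Itgb2 each had a log2 fold change of 0.87 (SE 0.27 and 0.32, edgeR adjusted p = 0.574 for both). Of 13 macrophage markers 12 were listed, summing to 845 to 1012 CPM in WT and 1215 to 1411 CPM in KO libraries. Of the 12, 11 had a log2 fold change above 0 (median 0.82). At an unadjusted edgeR p under 0.05, 5 were higher (3.70% of all genes). Only 1 did not overlap between the groups, with KO higher (8.39% of all genes). The sums depend on single genes. Without Lyz2 they were 483 to 629.5 CPM in WT and 564 to 644 CPM in KO libraries and overlapped. Those sums include Cd14, the 1 marker below 0. It stood at 404, 239 and 460.3 CPM in WT and 207, 143 and 432 CPM in KO replicates 1, 2 and 3. The mean log2 CPM of the 12 markers also overlapped, at 5.05 in WT replicate 2 and 4.93 in KO replicate 3. Itgb8, an epithelial and glial partner of Itgav, was the 1 gene below 0 among the other integrin subunits, at -0.04 (SE 0.38). The part that the number of stromal or immune cells has in these values was not tested.

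**Figure D5:**
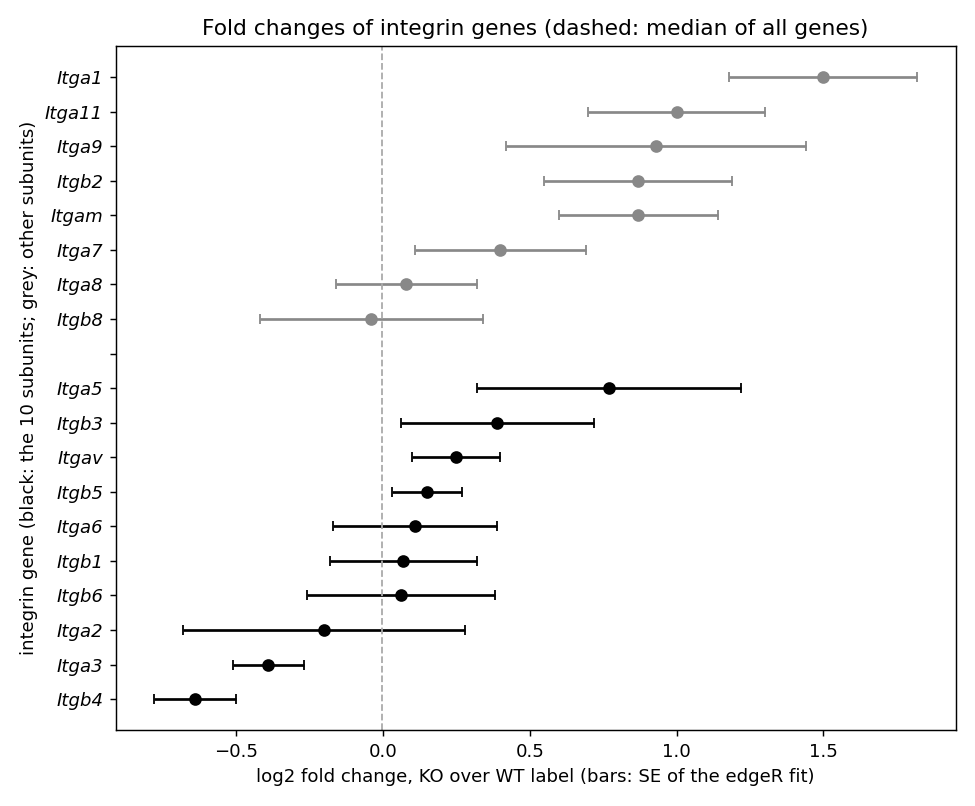
Log2 fold change (KO over WT) with the SE of the edgeR fit for the 10 subunits (black) and 8 other listed integrin subunits (grey); the dashed line is the median of all genes, -0.002. The 10 subunits lie between -0.64 and 0.77, and 7 of the other 8 lie above 0, up to 1.50 for Itga1.

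Ligand genes were read from lists of laminins, collagens and other ligands. The edgeR test called 0 members of any of them, and its smallest adjusted p in each of these and the partner lists was 0.574. Of 11 laminin chains 9 were listed, 6 above 0 and 3 below (median 0.07). The laminin chain Lama5, a ligand of the Itga3 and Itga6 receptors, stood at 811, 530.5 and 630.0 CPM in WT and 505, 443 and 404 CPM in KO replicates 1, 2 and 3. All KO libraries lay below all WT libraries, as for Itgb4 and Itga3, with a log2 fold change of -0.54 (SE 0.18, edgeR adjusted p = 0.574). Lamb3, of the epithelial laminin that anchors hemidesmosomes, had -0.12 (SE 0.24), while Lama4 and Lama2, of vessel and muscle basement membranes, had 0.35 (SE 0.19) and 0.90 (SE 0.56).

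All 13 collagen chains were listed, 11 of them above 0 with a median of 0.79. Col6a3 stood at 153, 315 and 148 CPM in WT and 451, 559.5 and 404 CPM in KO replicates 1, 2 and 3, with a log2 fold change of 1.20 (SE 0.33, edgeR adjusted p = 0.574, DESeq2 adjusted p = 0.0356). Col4a1, of the basement membrane, had 0.93 (SE 0.37). Below 0 were Col4a5 at -0.60 (SE 0.27) and Col17a1, a hemidesmosome collagen, at -0.39 (SE 0.39). The fibroblast markers given above include collagens of this list.

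Among 19 listed RGD and other ligands of 26, 14 lay above 0 and the median was 0.10. Postn, a matrix protein of stroma that binds Itgav receptors, had a log2 fold change of 1.12 (SE 0.37) and Fbln5, of elastic fibres, 0.47 (SE 0.18). L1cam, a cell adhesion molecule, stood at 35.2, 17.8 and 21.4 CPM in WT and 10.2, 8.80 and 13.9 CPM in KO replicates 1, 2 and 3, a log2 fold change of -1.18 (SE 0.31, edgeR adjusted p = 0.574, DESeq2 adjusted p = 0.0424). Npnt, a ligand of Itga8, had -0.34 (SE 0.29).

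The inner partners of integrins differed by small amounts. Of 32 activators and adaptors 31 were listed, 22 above 0 and 9 below with a median of 0.13, and edgeR called 0. Tns3, a tensin that binds beta tails, stood at 309, 319 and 384 CPM in WT and 423, 446 and 448 CPM in KO replicates 1, 2 and 3, with a log2 fold change of 0.38 (SE 0.11). Fermt3, the kindlin of blood cells, had 0.67 (SE 0.23). Paxillin, Pxn, an adaptor of focal adhesions, had -0.19 (SE 0.07) and Actn4, an actin crosslinker, -0.26 (SE 0.12). Each of these 4 had groups that did not overlap, as had 6 genes of this list with KO higher and 2 with KO lower in all, beside the 17.4% of all genes given above.

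All 27 kinases and scaffolds were listed, 14 above 0 and 13 below, with a median of 0.00 and 0 calls. Groups did not overlap for 1 of the 27 with KO higher and 3 with KO lower (8.39% and 9.05% of all genes). Ptk2, which encodes FAK, stood at 65.8, 82.2 and 82.3 CPM in WT and 88.6, 99.3 and 79.8 CPM in KO replicates 1, 2 and 3, and its groups overlapped (log2 fold change 0.22, SE 0.12). The adaptor Shc1 had 0.16 (SE 0.08). Git1, a scaffold of focal adhesion turnover, had -0.29 (SE 0.07) with all KO libraries below all WT libraries, and Rapgef1, an exchange factor for Rap1, had -0.19 (SE 0.08).

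Hemidesmosome and tetraspanin partners split evenly, 6 above 0 and 6 below among 12 listed of 13, with 0 calls. The groups overlapped for all 12, where 17.4% of all genes did not overlap. Among them, Cd47, a partner of Itgb3, had a log2 fold change of 0.17 (SE 0.10) and Bsg 0.07 (SE 0.09). The tetraspanins Cd82 and Cd9, which bind integrins in the membrane, had -0.20 (SE 0.09) and -0.17 (SE 0.14). All 18 genes of integrin trafficking were listed, 9 above 0 and 9 below, with 0 calls. Groups did not overlap for 1 of the 18 with KO higher and 3 with KO lower (8.39% and 9.05% of all genes). Dab2, an endocytic adaptor for beta tails, had 0.37 (SE 0.14) and Eps8 0.72 (SE 0.28), while Rab25, which recycles Itga5 receptors in epithelia, had -0.38 (SE 0.15) and Rcc2 -0.23 (SE 0.10).

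The remaining marker lists were read in the same way, and edgeR called 0 members of any marker list. DESeq2 called 7 of the 60 marker genes listed, beside 0.938% of all genes. Krt7 was the 1 called lower, and Mylk (basal), Esam (endothelial), Rgs5 and Abcc9 (pericyte), Ptprc (leukocyte) and Fabp4 (adipocyte) were the 6 called higher. Several of these lists were mixed in direction. Basal and myoepithelial markers had 8 above 0 and 3 below, among the latter Krt14 at -0.51 (SE 0.37) and Krt17 at -0.17 (SE 0.61). Pericyte and smooth muscle markers had 7 above and 2 below, and lymphocyte and other leukocyte markers 3 above and 1 below. Of 11 endothelial markers 3 were listed (Eng, Flt1 and Esam), summing to 29.0 to 73.9 CPM in WT and 75.7 to 219 CPM in KO libraries. The defining markers Pecam1 and Cdh5 were not among the listed genes. Of 7 adipocyte markers 2 were listed, Fabp4 and Lpl, at a summed 11.6 to 21.5 CPM in WT and 53.4 to 134 CPM in KO libraries. Adipoq, Plin1, Lep, Cidec and Pparg were not among the listed genes, so these values rest on Fabp4 and Lpl alone. Of 12 markers of lymphocytes and other leukocytes 4 were listed, at 39.1 to 69.8 CPM and 57.3 to 103 CPM. As a check of the labelled tumor cells, the epithelial genes Epcam and Cdh1 stood at 388 CPM or more in every library, while fibroblast and macrophage markers were also present in every library.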

How the data were processed

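The deposited table holds raw read counts, as whole numbers, for each gene symbol and library, and nothing in it was normalized. Per the submitters' processing notes, CASAVA 1.8, HISAT2, featureCounts and the build GRCm38 (mm10) were used. The annotation, strand setting and multi-mapping rule were not given in the sources used here. Every listed gene reached 133 counts or more in some library, so genes with low counts are absent and were not analysed here.

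These counts were fitted in R 4.3.3 with edgeR 4.0.16 (filterByExpr, which removed 0 genes, scaling by TMM, a robust quasi-likelihood F test, group as the only term, Benjamini-Hochberg adjustment over 10995 genes at 0.05). DESeq2 1.42.0 and limma-voom (limma 3.58.1) were alternatives. Log2 CPM used a prior count of 2. Lengths, coordinates and sequence overlap came from GENCODE annotation of GRCm38.

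Named genes were the 10 subunits, Nr4a1, up to 2 genes per direction with the smallest unadjusted p in each ligand or partner list, and the 3 genes most like the subunit with the smallest p. Itgam, Itgb2, Pf4 and the marker genes were named in addition after their values were seen. The members and lists were chosen with earlier results of these data known. Ratios between subunits and levels relative to markers were also chosen after values were seen. Alternatives covered scaling, filter, test, a replicate block, exon length and each library left out.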

Additional observations from a re-analysis of the deposited data

How the results depend on the processing

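Over 13 alternatives per subunit, the log2 fold changes of 6 of the 10 subunits kept their sign: Itgb4 lay between -0.71 and -0.49, Itga3 between -0.48 and -0.30, Itga5 between 0.31 and 1.11, Itgav between 0.11 and 0.33, Itgb3 between 0.09 and 0.72 and Itgb5 between 0.09 and 0.25. Signs turned without WT replicate 1 for Itga6 (-0.08), Itgb1 (-0.16) and Itgb6 (-0.22), without WT replicate 3 for Itga2 (0.26), without KO replicate 2 for Itgb1 (-0.03), and without KO replicate 3 for Itga2 (0.08), Itga6 (-0.13) and Itgb6 (-0.09); the cause was not tested. With 1 library left out, Itga2 lay between -0.54 and 0.26, Itga6 between -0.13 and 0.30, Itgb1 between -0.16 and 0.20 and Itgb6 between -0.22 and 0.26. The median over the subunits went from 0.09 to -0.12 without WT replicate 1 and to 0.23 without WT replicate 3.

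DESeq2 called 103 genes in all, 1 subunit (Itgb4) and 3 genes of the other integrin, ligand and partner lists (Itga1, Col6a3 and L1cam), where edgeR called 0 of each; its calls among the markers stand in the text above. With DESeq2 and 1 library left out, added after the data were seen, the subunits called ranged from 0 to 1: Itgb4 without any 1 of the WT replicates and Itga3 without KO replicate 1. With edgeR and 1 library left out, the calls over all genes ranged from 0 to 2, the 2 arising without WT replicate 2. The subunits whose groups did not overlap ranged from 2 to 4, the 4 without WT replicate 2 being Itgb4, Itga3, Itga5 and Itgb3; a group of fewer libraries overlaps less easily. In the order per length, 0 to 2 subunits changed place with 1 library left out and 5 with the longest transcript as length.

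The replicate block changed no call: edgeR called 0 genes and 0 subunits, and the log2 fold change of Itgb4 was -0.63 (adjusted p = 0.486). The labels give no shared litter or day for a replicate number. Same-numbered libraries deviated from their group means with correlations across genes of -0.11, 0.35 and -0.25. For libraries of unlike number these correlations were -0.33 to 0.35. With 3 libraries a group, of which 1 stood apart, such values cannot decide whether the numbers pair the libraries. Depth limits Itgb6 most, at 323 to 755 counts. With 3 libraries a group, of which WT replicate 1 stood apart, differences of the size seen for Itga5 lay within the spread.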
